A study of Homo sapiens with 6 samples.

Results

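The genes described here are the partner subunits of the mTOR kinase complexes and the TSC and RHEB genes upstream of them: RICTOR, RPTOR, MLST8, MAPKAP1, DEPTOR, AKT1S1, PRR5, TSC1, TSC2 and RHEB. They were chosen by name, without the kinase MTOR itself, and all 10 were found once each among the 57905 gene identifiers of the count files. All 10 also passed the filter on low counts that left 14398 genes for testing. The RNA was total RNA of NCI-H929 (H929), a human multiple myeloma cell line, that is, a line of malignant plasma cells. Every reaction held 5 µg of this RNA at 37 °C for 1 h. In 3 samples 2 µg of recombinant human IRE1, the endoplasmic reticulum stress sensor with a cytoplasmic endoribonuclease domain, was added, and 3 control samples received no IRE1. Poly(A)-containing RNA was then purified and sequenced, and the submitters describe the 6 samples as biological replicates. All values refer to purified RNA from 1 cell line, so the comparison holds no response of living cells. The libraries are called control 1 to 3 and IRE1 1 to 3.

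mTOR is a protein kinase that works in a pair of complexes. In mTORC1 it is bound by RPTOR (raptor), which brings in substrates, and this complex drives protein synthesis and restrains autophagy when nutrients and growth factors are present. In mTORC2 it is bound by RICTOR, MAPKAP1 (also called SIN1) and PRR5 (protor-1), and this complex phosphorylates AKT and related kinases. MLST8 belongs to both complexes, DEPTOR is an inhibitor of both, and AKT1S1 (PRAS40) is an inhibitor of mTORC1 that AKT phosphorylates. The small GTPase RHEB activates mTORC1 on the lysosome, and the TSC1-TSC2 complex holds RHEB in its inactive form. Myeloma cells depend on this pathway for growth, and high DEPTOR is known from a subset of myelomas. IRE1 cuts the XBP1 mRNA during the unfolded protein response and also cuts other mRNAs, a process called regulated IRE1-dependent decay.

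Among the 10 genes, RICTOR was the gene whose count changed past the threshold: it fell to 54.3% of its control level. The threshold was an adjusted p of 0.05 in edgeR's quasi-likelihood test, adjusted over all genes tested, and it was passed by 3270 genes (22.7%), of which 1781 (12.4%) were lower and 1489 (10.3%) higher with IRE1. Thus 1 of the 10 genes was lower, and 0 were higher, although 4 were higher and 2 lower at an unadjusted p under 0.05. No share of all genes at an unadjusted p is given here, so such counts, here and in the pathway lists, have no background to be read against. DESeq2 and limma on the authors' normalized values gave the same counts of 1 and 0. The median log2 fold change, IRE1-treated against control, was 0.01 over the 10 genes and 0.00 over all tested genes. In 6 of the 10 genes the libraries of the groups did not overlap, against 39.1% of all genes tested. The share of lower genes among the 10 was therefore close to that among all genes.

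The levels in the control libraries spanned a wide range once they were set per length of the canonical transcript, as CPM (counts scaled to the depth of the library) per kilobase. MLST8 was highest at 77.7 ± 0.563 CPM per kilobase (SD, n = 3), followed by DEPTOR at 64.0 ± 1.37. AKT1S1 stood at 29.3 ± 1.24, RHEB at 23.1 ± 1.56, MAPKAP1 at 21.2 ± 0.606 and TSC2 at 17.3 ± 0.558 CPM per kilobase. RPTOR had 7.56 ± 0.267, PRR5 4.89 ± 0.911, TSC1 3.35 ± 0.31 and RICTOR 1.97 ± 0.316 CPM per kilobase. The ranges of RHEB and MAPKAP1 overlapped, and every other neighbouring pair of members in this order was separate in the 3 control libraries. MTOR, with 7.91 ± 0.358 CPM per kilobase, overlapped RPTOR. Among the 12182 tested protein-coding genes with a canonical transcript, whose median was 6.52 CPM per kilobase, MLST8 was at percentile 92.5, DEPTOR at 91.1 and RICTOR at 26.4. The scaffold that defines mTORC2 was thus the lowest of the 10 per length, already before IRE1 was added.

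**Figure D1:**
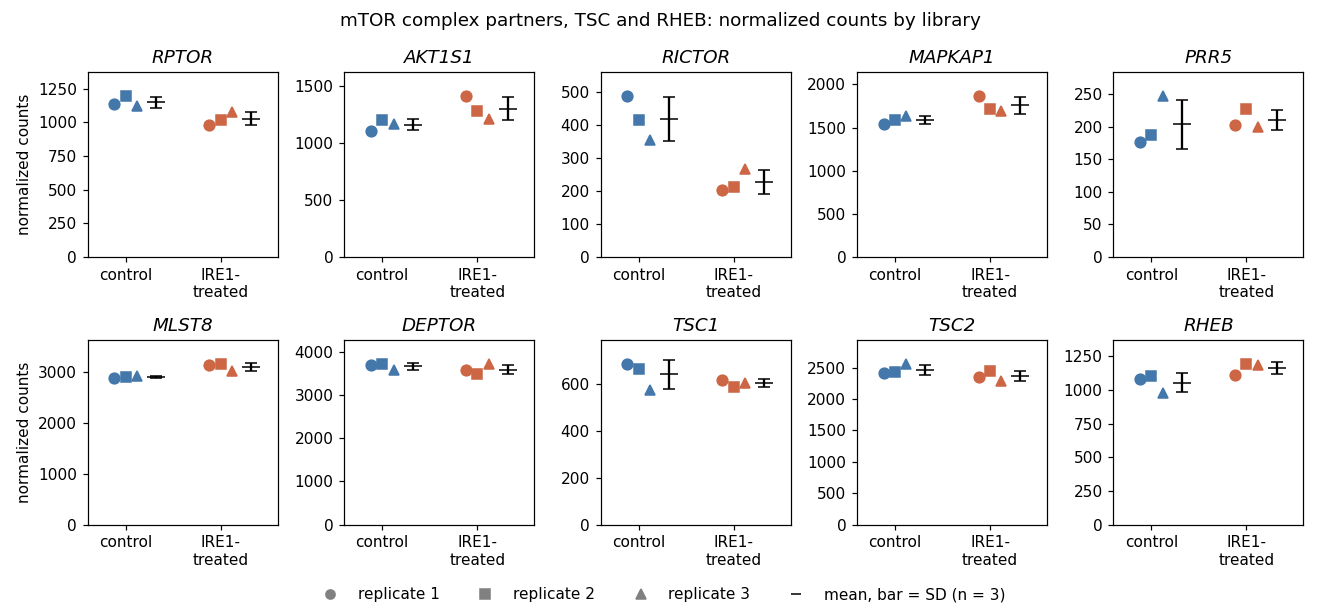
Normalized counts (y axes, starting at 0, each gene on its own scale) of the 10 genes in the 3 control and 3 IRE1-treated libraries; points are libraries and bars the group mean with SD. Relative to its own level, RICTOR has the widest gap between the groups. Its counts ran from 353 to 487 in the controls and from 203 to 267 with IRE1.

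RICTOR (ENSG00000164327) is a minus-strand gene (GRCh37, chromosome 5, 38938022 to 39074504), and its canonical transcript of 9533 bases has 38 exons, 5124 coding bases and a 3′ UTR of 4387 bases. The consensus that the study gives for IRE1 sites, CTGCAG in DNA letters, was searched on the mRNA strand of the canonical transcripts. RICTOR held 3 copies. They are shown because RICTOR carried the change, with 12 bases on each side and the motif in capitals; the number after the gene is the first base of the motif, counted from the transcript's 5′ end.
RICTOR 2187: ccaaaattttaaCTGCAGctactgatgcct
RICTOR 2203: agctactgatgcCTGCAGactctatgcaac
RICTOR 8370: ttcaaattataaCTGCAGttatttttgcat
The motif at 2187 is in coding exon 22 (chr5:38959305-38959310) and that at 2203 is in coding exon 23 (chr5:38958926-38958931), at 22.9% and 23.1% of the length of the mRNA. The motif at 8370 is in the 3′ UTR in exon 38 (chr5:38939180-38939185). When the 30-base windows were folded, none of the 3 motifs had its central G in a predicted loop, taken as a hairpin whose unpaired part is 5 to 11 bases long and whose stem has 3 or more pairs. RICTOR also held 11 copies of the wider motif CNGCAG, which contains CTGCAG, and 0 of them were in such a loop. The study, with another folding program and longer sequences, does report a stem-loop with the consensus in RICTOR, as described below.

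The normalized counts of RICTOR, that is, counts scaled to the mean effective library of 22267416, were 487, 413 and 353 in control 1, 2 and 3, and 203, 210.3 and 267 in IRE1 1, 2 and 3. Every IRE1-treated library was below every control library, and the highest treated library (IRE1 3) still lay well under the lowest control (control 3). The raw counts behind them were 576, 428 and 343 in the controls and 169, 199 and 275 with IRE1. The mean fell from 418 ± 67.1 to 227 ± 35.2 normalized counts (SD, n = 3 each), which is 1.84-fold lower. In edgeR the log2 fold change was -0.88 with a standard error of 0.125, a 95% interval from -1.15 to -0.61 and an adjusted p of 2.97e-04. A single-value exact permutation test over the 6 libraries, two-sided, gave p = 0.1, the smallest that 3 against 3 can give. Set against the control mean, the shifts were -1.03, -0.98 and -0.63 on the log2 scale in IRE1 1, 2 and 3.

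RICTOR remained past the threshold in all 15 alternatives tried, with log2 fold changes from -1.02 to -0.61, and when single libraries were left out it ranged from -1.02 to -0.75. It is among the genes that the study picked for follow-up from these same libraries, so its direction here is not independent evidence. Reads upstream and downstream of a cut enter the same gene total, which therefore does not tell where along the mRNA reads were lost, and the exons of RICTOR were not analysed here.

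The study's primer list holds a pair of assays on RICTOR, and their sequences are shown to place them on the transcript, 5′ to 3′ and all in lower case because no base in them is singled out.
RICTOR F: actccaaatatgttgacttgattg
RICTOR R: ctttggttactccgacgaaca
RICTOR LOOP F: agaagcagaggctgtgttgg
RICTOR LOOP R: ccagtaactgcggaacagt
The first pair matched bases 2529 to 2631 of the canonical transcript, in coding exon 26, downstream of the motifs at 2187 and 2203 and upstream of that at 8370. The LOOP pair matched bases 5083 to 5283, from the end of the coding sequence into the 3′ UTR, all in exon 38. This stretch of 201 bases held 0 copies of CTGCAG and 1 of CNGCAG, with its middle base in the 3′ UTR and not in a predicted loop.
RICTOR 5271: ctgtacactgttCCGCAGttactggtacat
Capitals mark the CNGCAG copy (chr5:38942279-38942284). It lies inside the stretch that RICTOR LOOP R matched, bases 5265 to 5283. On this transcript, no copy of either motif therefore lay between the LOOP primers. The deposited gene counts do not separate these stretches from the rest of the mRNA. The study folded transcript sequences with Mfold and, unlike the windows here, reports the RICTOR consensus within a stem-loop near its cleavage region. It describes primers on both sides of that consensus, and reports a lower qRT-PCR signal with them in IRE1-treated samples. Which copy the study means was not settled here. Folding short windows by another program does not test the study's stem-loop, and the qRT-PCR result was not tested here. In cells under endoplasmic reticulum stress, the study reports mRNA decay for some of its targets, RICTOR not among them. For its other targets it detected none under the conditions used. Its discussion nevertheless describes all of its targets as degraded after such stress.

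Of the other mTORC2 subunits, none moved past the threshold with RICTOR. MAPKAP1 (ENSG00000119487; chromosome 9, 128199672 to 128469513, minus strand), which helps mTORC2 to bind its substrates, had 1546, 1593 and 1637 normalized counts in control 1, 2 and 3 and 1866, 1713 and 1692 in IRE1 1, 2 and 3. The groups did not overlap, and MAPKAP1 lay higher with IRE1, against the direction of RICTOR. Its means were 1592 ± 45.5 and 1757 ± 94.8 (110.4% of control), with a log2 fold change of 0.14 ± 0.0542 (SE), a 95% interval from 0.03 to 0.26 and an adjusted p of 0.0713. The threshold was passed when IRE1 3 was left out (log2 fold change 0.17, adjusted p = 0.0269). An opposite-strand RNA, ENSG00000287782, shares 11.5% of the exon bases of MAPKAP1 and has no row in the count files.

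PRR5 (ENSG00000186654; chromosome 22, 45064427 to 45133561, plus strand), which binds RICTOR, had few counts: 177, 187 and 247 in control 1, 2 and 3 and 203, 227 and 199 in IRE1 1, 2 and 3. The groups overlapped, with control 3 the highest of all 6 libraries. The means were 204 ± 38.0 and 209.7 ± 15.3, and the log2 fold change of 0.05 had a 95% interval from -0.22 to 0.32 (adjusted p = 0.824), so that neither a small rise nor a small fall was detectable at this depth. Its sign turned to -0.03 when libraries were scaled by library size only. PRR5 shares 17.8% of its exon bases with the read-through gene PRR5-ARHGAP8 on the same strand, which had 0 to 1 counts per library.

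MLST8 (ENSG00000167965; chromosome 16, 2254249 to 2259454, plus strand), the small subunit of both complexes, had 2868, 2894 and 2909 normalized counts in control 1, 2 and 3 and 3132, 3150 and 3005 in IRE1 1, 2 and 3. The treated libraries were all above the controls. The difference was small: from 2890 ± 20.9 to 3096 ± 79.0 (107% of control), with a log2 fold change of 0.10, a 95% interval from 0.00 to 0.20 and an adjusted p of 0.14. BRICD5, on the opposite strand, shares 4.61% of the exon bases of MLST8 and had 15 to 23 counts.

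RPTOR, the partner that defines mTORC1, came nearest to the threshold after RICTOR. RPTOR (ENSG00000141564; chromosome 17, 78518619 to 78940171, plus strand) had 1138, 1197 and 1119 normalized counts in control 1, 2 and 3 and 985, 1019 and 1078 in IRE1 1, 2 and 3. Every treated library was below every control, with a narrow gap between IRE1 3 and control 3. The mean went from 1151 ± 40.6 to 1027 ± 47.1 (89.2% of control). The log2 fold change was -0.16 ± 0.0583 (SE), with a 95% interval from -0.29 to -0.04 and an adjusted p of 0.0548. This gene passed the threshold without IRE1 3 (-0.19, adjusted p = 0.0213) and when scaled by library size only (-0.24, adjusted p = 0.0156). With the trends of length and GC content taken out of each library its log2 fold change was -0.03. The intervals of RICTOR and RPTOR do not overlap.

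AKT1S1 (ENSG00000204673; chromosome 19, 50372290 to 50381716, minus strand), the mTORC1 inhibitor, had 1106, 1203 and 1169 normalized counts in control 1, 2 and 3 and 1410, 1278 and 1212 in IRE1 1, 2 and 3. All treated libraries were above the controls, IRE1 3 by the smallest margin. The means were 1159 ± 49.1 and 1300 ± 101 (112% of control), and the log2 fold change was 0.16, with a 95% interval from 0.03 to 0.30 and an adjusted p of 0.0742. Without IRE1 3 it was 0.22 (adjusted p = 0.0117). TBC1D17, on the opposite strand, shares 2.63% of the exon bases of AKT1S1.

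DEPTOR (ENSG00000155792; chromosome 8, 120885957 to 121063157, plus strand), the inhibitor of both complexes, had 3697, 3717 and 3573 normalized counts in control 1, 2 and 3 and 3575, 3479 and 3704 in IRE1 1, 2 and 3. The groups overlapped in most of their range. The means were 3663 ± 78.1 and 3586 ± 113, and the 95% interval of the log2 fold change of -0.03 ran from -0.13 to 0.07 (adjusted p = 0.696). The opposite-strand gene DEPTOR-AS1 shares 9.59% of its exon bases and had 30 to 47 counts.

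The upstream genes RHEB, TSC1 and TSC2 showed small differences or none that the test could separate. RHEB (ENSG00000106615; chromosome 7, 151163098 to 151217206, minus strand), the GTPase that switches mTORC1 on, had 1082, 1105 and 973 normalized counts in control 1, 2 and 3 and 1113, 1192 and 1186 in IRE1 1, 2 and 3. The groups did not overlap, although control 2 and IRE1 1 lay close together. The mean went from 1054 ± 70.8 to 1164 ± 43.7 (110.5% of control), with a log2 fold change of 0.14, a 95% interval from 0.01 to 0.27 and an adjusted p of 0.11. Without IRE1 1 it was 0.18 (adjusted p = 0.0368). Its 3 annotated pseudogenes, RHEBP1 to RHEBP3, had 0 counts in every library.

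TSC1 (ENSG00000165699; chromosome 9, 135766735 to 135822261, minus strand), which stabilizes TSC2, had 686, 663 and 573 normalized counts in control 1, 2 and 3 and 619, 588 and 606 in IRE1 1, 2 and 3. Control 3 was the lowest library of all, so the groups overlapped. The means were 641 ± 59.4 and 604 ± 15.8, with a log2 fold change of -0.09 and a 95% interval from -0.25 to 0.07 (adjusted p = 0.448). TSC2 (ENSG00000103197; chromosome 16, 2097968 to 2139492, plus strand), the subunit that turns RHEB off, had 2417, 2428 and 2560 normalized counts in control 1, 2 and 3 and 2353, 2443 and 2293 in IRE1 1, 2 and 3. These groups overlapped as well, because IRE1 2 lay above control 1 and control 2. The means were 2468 ± 79.8 and 2363 ± 75.6, and the log2 fold change of -0.06 had a 95% interval from -0.17 to 0.04 (adjusted p = 0.402). Both signs turned, to 0.13 for each gene, when the length and GC trends were taken out. PKD1, on the opposite strand, shares 3.82% of the exon bases of TSC2, had 959 to 1880 counts and was lower with IRE1 (log2 fold change -0.36, adjusted p = 8.08e-04 in edgeR).

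MTOR (ENSG00000198793), the kinase of both complexes, was not among the 10 but bears on them. It had 1614, 1507 and 1484 normalized counts in control 1, 2 and 3 and 1254, 1250 and 1283 in IRE1 1, 2 and 3, so that the groups were well apart. The mean fell from 1535 ± 69.5 to 1262, or 82.2% of control, the treated libraries lying within 1250 to 1283, with a log2 fold change of -0.28 ± 0.0538 (SE) and an adjusted p of 0.00191 in edgeR. With the length and GC trends taken out it was -0.07 (adjusted p = 0.421 in edgeR). The study lists mTOR among the putative IRE1 substrates that it selected by exon from these same libraries. It also reports a lower qRT-PCR signal in the 5′ region of all the mRNAs so selected. The direction of MTOR here is therefore not independent evidence, and its exons were not analysed here.

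**Figure D2:**
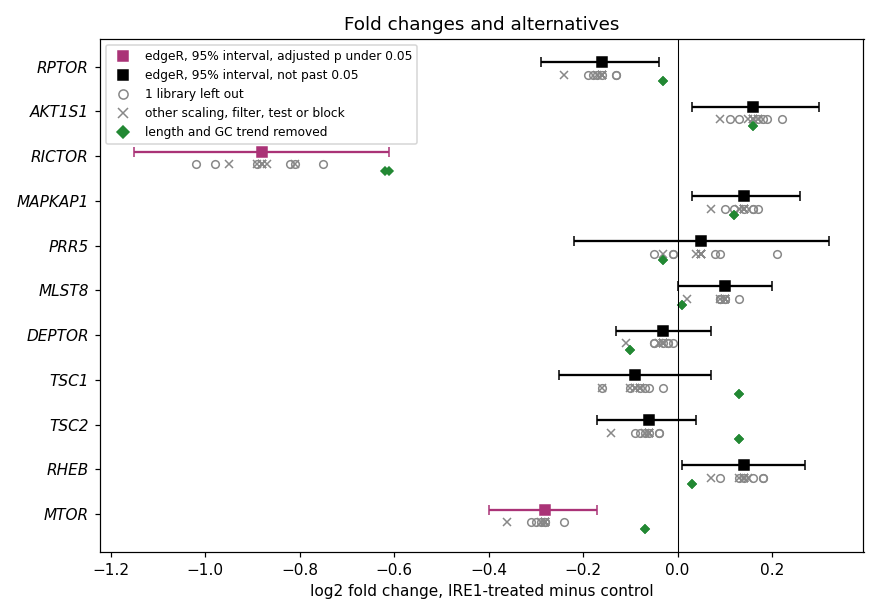
Log2 fold change (x axis, IRE1-treated against control) of the 10 genes and of MTOR, as squares with the 95% interval of the edgeR fit, purple where past the threshold. Grey circles show fits without 1 library, grey crosses other scalings, filters, tests or the block, and green diamonds the fits with the length and GC trends removed. RICTOR at -0.88 and MTOR at -0.28 are the genes past the threshold, and the other intervals lie between -0.29 and 0.32.

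How the partners stood to each other was compared within each library, as the log2 ratio of the raw counts of a pair, which does not depend on the scaling of libraries. These ratios are not per length, so their change and not their height is of interest. RICTOR against RPTOR, the subunits that set the mTORC2 and mTORC1 forms apart, was -1.22, -1.53 and -1.66 in control 1, 2 and 3 and -2.28, -2.27 and -2.01 in IRE1 1, 2 and 3. In other words, RICTOR had 31.6 to 42.8% as many counts as RPTOR in the controls and 20.6 to 24.8% with IRE1, without overlap. The mean ratio went from -1.47 ± 0.226 to -2.19 ± 0.152, a difference of -0.71 (exact permutation test, two-sided, p = 0.1, adjusted over the 3 ratios 0.15). RICTOR against MAPKAP1, both in mTORC2, was -1.67, -1.95 and -2.21 in control 1, 2 and 3 and -3.20, -3.02 and -2.66 in IRE1 1, 2 and 3. This ratio did not overlap either and differed by -1.02 (exact permutation p = 0.1, adjusted 0.15). With 3 samples against 3 these tests cannot go below 0.1. The partners differ in length and GC content, and a ratio within a library does not remove trends with these. With the length and GC trends taken out, the differences were -0.59 for RICTOR against RPTOR and -0.73 for RICTOR against MAPKAP1.

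TSC1 against TSC2, the partners of the complex that restrains RHEB, was -1.82, -1.87 and -2.16 in control 1, 2 and 3 and -1.93, -2.05 and -1.92 in IRE1 1, 2 and 3. The groups overlapped, and the difference of -0.02 was below the spread of the controls, whose SD was 0.183 (exact permutation p = 0.9, adjusted 0.9). It ranged from -0.12 without control 3 to 0.05 without control 1.

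**Figure D3:**
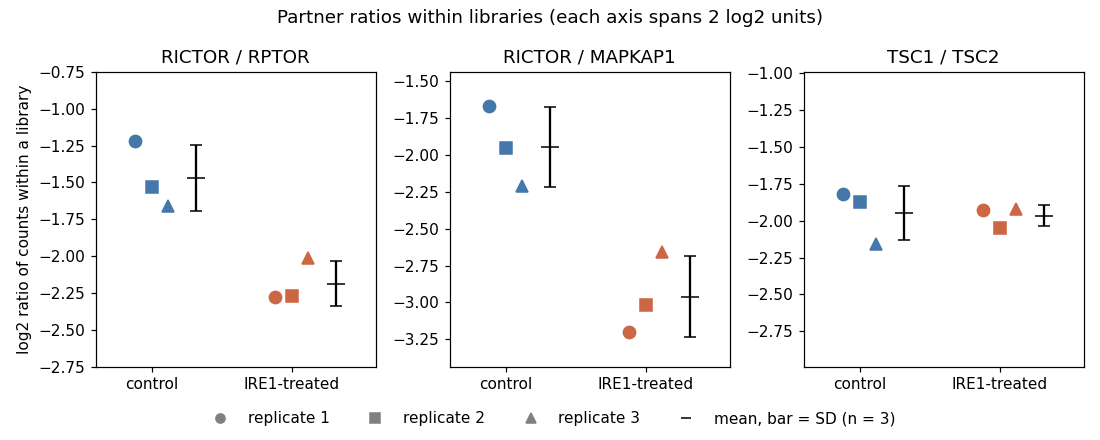
Log2 ratio of raw counts (y axis) within each library for RICTOR against RPTOR, RICTOR against MAPKAP1 and TSC1 against TSC2; points are libraries, bars group means with SD. Both RICTOR ratios lie lower in all 3 IRE1-treated libraries, and the TSC ratio overlaps.

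The difference between groups moved with transcript length over the whole transcriptome. Each gene's log2 level was centred on its mean over the 6 libraries, and these deviations were fitted on the log2 of the longest transcript. The slope was 0.06, 0.08 and 0.03 in control 1, 2 and 3 and -0.10, -0.06 and -0.02 in IRE1 1, 2 and 3, so the groups were separate in it. Because of the centring, the slopes compare the libraries only with each other, and their signs do not describe the levels within a library. Of 1335 tested genes with a transcript of 8 kb and over, 43.3% were lower and 1.72% higher with IRE1, whereas of 3016 genes under 2 kb 0.928% were lower and 24.6% higher. The median log2 fold change was -0.25 in the first class and 0.17 in the second. RICTOR, with 9533 bases, is the longest of the 10, and its GC content of 36.5% is the lowest. Among the 1027 tested genes of 8 to 12 kb, whose median was -0.24, 12 had a lower log2 fold change than RICTOR, and so had 7 of the 591 in that class with GC under 45%. With the length and GC trends taken out of each library, RICTOR was at -0.62 and still past the threshold (adjusted p = 0.00118 in edgeR).

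The other long genes of the set did not follow RICTOR. TSC1, with a longest transcript of 8715 bases, and TSC2, with 8598, had log2 fold changes of -0.09 and -0.06, above the median of their length class. RPTOR, with 6838 bases, was at -0.16, against a median of -0.10 for genes of 4 to 8 kb. MLST8 (2116 bases), RHEB (2046) and PRR5 (2279) were at 0.10, 0.14 and 0.05, against a median of 0.05 for genes of 2 to 4 kb. The classes rest on the longest transcript, and another transcript can place a gene elsewhere. The canonical transcripts of MLST8 and PRR5, of 1671 and 1872 bases, are under 2 kb, where the median was 0.17. That of TSC2, with 6415 bases, is within 4 to 8 kb. Without the trends MLST8 was at 0.01, RHEB at 0.03, MAPKAP1 at 0.12 and AKT1S1 at 0.16. Over the 10 genes, Spearman's rho between log2 fold change and log2 length was -0.71, and over all tested genes it was -0.52; these are descriptions across genes of the same 6 libraries, and genes are not independent replicates. How far the length gradient enters the small differences of these genes was not tested beyond the values given without the trend.

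**Figure D4:**
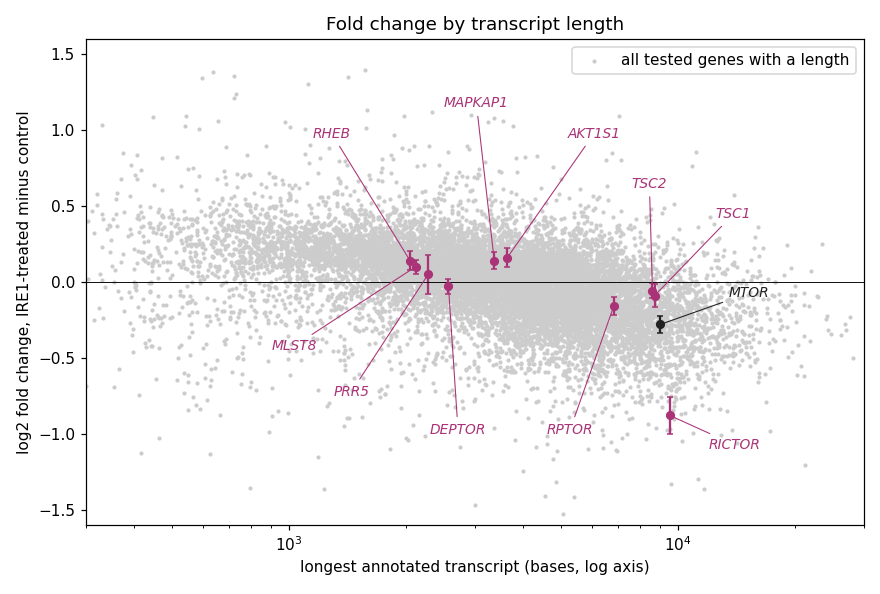
Log2 fold change (y axis) against length of the longest transcript (x axis, log scale) for the tested genes in grey, the 10 genes in purple and MTOR in black, with SE as bars; 54 of the 14111 genes lie outside the axes. RICTOR lies far below the downward drift of the grey points, while TSC1 and TSC2 lie above it.

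Copies of the IRE1 consensus were spread very unevenly over the 10 mRNAs. The canonical transcripts held 50 copies of CTGCAG, of which 41 lay in coding sequence, 9 in 3′ UTRs and 0 in 5′ UTRs, and 9 of the 10 genes had at least 1, as had 85.3% of the 12182 tested coding genes. TSC2 had 16 copies, or 2.49 per kilobase, and TSC1 had 12, against a median of 2 copies per transcript and 0.704 per kilobase over the tested coding genes. At least 12 copies were found in 2.67% and at least 16 in 0.977% of those genes. RPTOR had 6, MLST8 4, RICTOR, PRR5 and DEPTOR 3 each, MAPKAP1 2, RHEB 1 and AKT1S1 0 copies. Per kilobase, RICTOR had 0.315 and MLST8 2.39 copies. A match is a run of letters and not a measured cut.

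In 11 of the 50 copies the central G was predicted in a hairpin loop of the size given above: 5 in TSC2, 2 in TSC1, 2 in MLST8, 1 in PRR5 and 1 in RHEB. XBP1, the best known IRE1 substrate, had 0 copies of CTGCAG and 1 copy of CNGCAG in a loop in the canonical transcript used here. The study, citing earlier work, places the consensus within a stem-loop in XBP1 mRNA too. IRE1 cuts an intron out of that mRNA, and whether the transcript used here still holds this intron was not checked. The 0 therefore does not speak for the uncut XBP1 mRNA. The gene count of XBP1 did not pass the threshold (log2 fold change -0.09, adjusted p = 0.143 in edgeR). All IRE1-treated libraries nevertheless lay below all controls, at 54174 to 57376 against 58538 to 61124 normalized counts. At exon level the study reports XBP1 as cut in these samples, with fewer reads 5′ of the cleavage sites and similar reads 3′ of them. A gene total mixes these parts and does not test that result. Examples of the looped copies are printed to show the sequences around them. The motif is in capitals.
TSC2 603: gctgactttgtcCTGCAGtggatggatgtt
TSC2 2540: ggccttgtccatCTGCAGcgtggagatgcc
TSC1 2623: gaagctggaggaCTGCAGgaacatgattgc
MLST8 164: tcatcctggccaCTGCAGgctacgaccaca
PRR5 821: atgctgctggtgCTGCAGggggtacatgag
RHEB 1517: ctgcgcagtggcCTGCAGatgttggggctg
The copy at 603 of TSC2 is in exon 6 (chr16:2105414-2105419), in a loop of 6 bases closed by 7 pairs, and that at 2540 is in exon 22 (chr16:2124275-2124280), in a loop of 7 bases closed by 5 pairs. The TSC1 copy is in exon 19 (chr9:135777067-135777072), with a loop of 8 bases, the MLST8 copy in exon 2 (chr16:2256136-2256141) and the PRR5 copy in exon 6 (chr22:45128266-45128271). The RHEB copy is in the 3′ UTR in exon 8 (chr7:151163622-151163627), in a loop of 10 bases closed by 5 pairs. Coordinates are those of GRCh37. Folding a 30-base window leaves out the rest of the mRNA, so these structures are predictions for the windows alone.

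**Figure D5:**
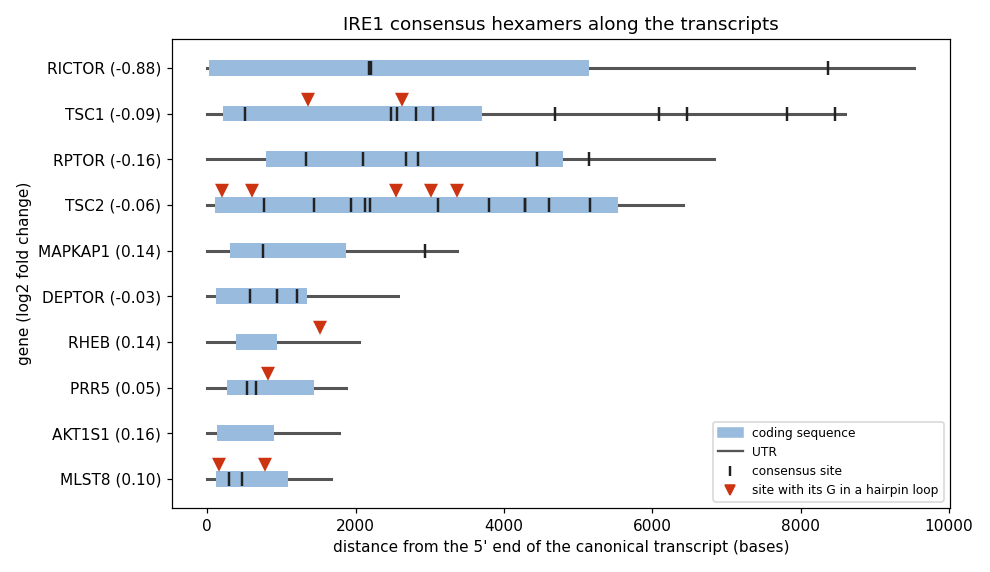
CTGCAG copies along the canonical transcripts of the 10 genes, drawn to scale from the 5′ end (x axis, bases), with the coding sequence as the thick part, black ticks for copies and red triangles for those predicted in a hairpin loop; the log2 fold change stands beside each name. The marks crowd in TSC1 and TSC2 and are few in RICTOR.

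The wider pathway was described with 7 lists of 78 genes, of which 74 were tested. Of these, 12 (16.2%) were lower and 8 (10.8%) higher, close to the shares among all genes given above, and their median log2 fold change was -0.05. Genes of the lysosomal platform on which mTORC1 is activated, the Rag GTPases and Ragulator, had 3 of 10 higher and 0 lower, with 0 lower at an unadjusted p under 0.05 and in DESeq2 too, but with 2 higher and 1 lower once the length and GC trends were taken out. LAMTOR2, a Ragulator subunit, had 1414, 1399 and 1538 normalized counts in control 1, 2 and 3 and 2266, 1922 and 1730 in IRE1 1, 2 and 3, a log2 fold change of 0.44 (adjusted p = 0.00118). LAMTOR4 rose by 0.34 (adjusted p = 0.00252) and LAMTOR5 by 0.30 (adjusted p = 0.00361). These subunits are short: their longest transcripts have 868, 730 and 1830 bases, and with the length and GC trends taken out their log2 fold changes were 0.21, 0.11 and 0.17, of which that of LAMTOR2 passed the threshold (adjusted p = 0.0184 in edgeR).

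Genes upstream of the complexes in growth factor and energy signalling, the PI3K and AMPK list, had 6 of 17 lower and 0 higher, again with 0 higher at an unadjusted p under 0.05 and in DESeq2. With the length and GC trends taken out, 5 were lower and 2 higher. PDPK1, the kinase that acts with mTORC2 on AKT, had 1050, 984 and 1022 normalized counts in control 1, 2 and 3 and 644, 765 and 748 in IRE1 1, 2 and 3. It fell by 0.50 on the log2 scale (adjusted p = 2.43e-04), and its mean went from 1019 ± 33.4 to 719 ± 65.3. IRS1, an adaptor of the insulin receptor, fell by 0.48 (adjusted p = 2.18e-04), from 1880 ± 27.1 to 1349 ± 144. Without the trends PDPK1 was at -0.35 and IRS1 at -0.25, both past the threshold (adjusted p = 0.00168 and 0.00483 in edgeR). CAB39, a partner of the kinase that activates AMPK, was at -0.22 (adjusted p = 0.0282) and PIK3R1, a regulatory subunit of PI3K, at -0.37 (adjusted p = 0.0308). Without the trends CAB39 was at -0.18 (adjusted p = 0.0438 in edgeR), and PIK3R1, at -0.19, was no longer past the threshold (adjusted p = 0.292). CAB39 lost its call without control 1, control 2 or IRE1 2 (adjusted p = 0.117, 0.15 and 0.135), and PIK3R1 without control 1, 2 or 3 or IRE1 2 (adjusted p = 0.105, 0.0725, 0.0872 and 0.137).

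Downstream, the list of mTORC1 substrates and effectors had 4 of 15 lower and 2 higher. LPIN1, a phosphatidate phosphatase, fell by 0.33 (adjusted p = 5.12e-04) and LARP1, which binds mRNAs of the translation machinery, by 0.27 (adjusted p = 7.44e-04). RPS6, the ribosomal protein phosphorylated downstream of mTORC1, was higher by 0.29 (adjusted p = 7.44e-04), with 15 annotated pseudogenes that could share its reads, and EIF4EBP1, the repressor of cap-dependent translation, by 0.19 (adjusted p = 0.0147). The call of EIF4EBP1 was lost without control 1, control 2 or IRE1 2 (adjusted p = 0.0802, 0.0942 and 0.0831). With the trends taken out, LPIN1 was at -0.22 and RPS6 at 0.13, both past the threshold, whereas LARP1 at -0.07 and EIF4EBP1 at -0.02 were not (adjusted p = 0.257 and 0.805 in edgeR). The list then held 1 lower and 2 higher genes. Of the 8 tested substrates of mTORC2, 1 was lower: PRKCA, a protein kinase C, fell by 0.35 (adjusted p = 0.00469). At an unadjusted p under 0.05, 5 were lower, with no share of all genes at that p to set beside them. Without the trends PRKCA was at -0.13 and not past the threshold (adjusted p = 0.319 in edgeR), and 1 gene of the list was lower and 1 higher.

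The remaining lists held few calls. Of 12 genes of GATOR1, GATOR2 and KICSTOR, which relay amino acid supply, SEC13 was higher (0.16, adjusted p = 0.0222). SEC13 lost its call without control 1, control 2 or IRE1 2 (adjusted p = 0.115, 0.103 and 0.109). Of 6 further complex partners and upstream paralogs, RHEBL1, a relative of RHEB, was higher by 0.42 (adjusted p = 0.00995) and TBC1D7, the third subunit of the TSC complex, by 0.30 (adjusted p = 0.0156). RHEBL1 lost its call without IRE1 2 (adjusted p = 0.0544), and TBC1D7 without control 2 or control 3 (adjusted p = 0.102 and 0.0509). With the length and GC trends taken out, RHEBL1 at 0.24 and SEC13 at 0.07 were not past the threshold (adjusted p = 0.115 and 0.286 in edgeR), and TBC1D7 was, at 0.26 (adjusted p = 0.04). Of the 6 tested nutrient and stress sensors 0 changed in edgeR or DESeq2, with 1 lower at an unadjusted p under 0.05.

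RICTOR's pattern over the 6 libraries was most like that of QSER1, IKZF3, HIPK3, BDP1 and SCN3A, out of the 10302 tested genes that averaged 100 normalized counts or more. The measure was the Euclidean distance between log2 CPM values centred on each gene's mean, and it was 0.20 to 0.23. Their log2 fold changes were from -0.84 to -0.70, which follows from their choice by likeness to RICTOR. Their longest transcripts of 7614 to 11037 bases are long like that of RICTOR. No other member of the 10 was among them, as none of the others had a fold change near that of RICTOR.

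The libraries held 19615715 to 25678499 counts on genes, and the scaling factor by TMM was 1.02 to 1.03 for control and 0.947 to 0.996 for IRE1-treated libraries. The line's label was checked against marker lists: all 8 plasma cell markers were tested and summed to 236342 to 241442 normalized counts in the controls and 236688 to 253415 with IRE1, of which 1 was lower and 2 were higher. The 4 B cell markers summed to 45.3 to 54.1 and 47.6 to 50.7, and the 5 myeloid markers to 22.6 to 42.3 and 20.4 to 32.8. T cell markers summed to 902 to 947 and 954 to 1182, nearly all of it from 1 gene, and epithelial and stromal markers to 1231 to 1318 and 1390 to 1580, with 1 of them higher. The part of these other markers in the results was not tested.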

How the data were processed

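Per the labels and the study's methods, reactions were stopped at 95 °C for 5 min and poly(A)-containing RNA was sequenced, each sample in its own lane, so lane and sample cannot be told apart. The submitters' processing notes name cutadapt 1.12, STAR 2.5.3a, HTSeq 0.6.1p1, edgeR 3.24.3 and hg19/GRCh37; the strand setting and overlap mode of the counting are not given in the sources used here. The authors deposited a raw count per Ensembl gene and library, and a table of CPM, normalized by the authors, for 12558 genes, which served only as an alternative. HTSeq's summary lines, 21.4 to 23.2% of all counts, were left out.

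Counts were analysed with edgeR 4.0.16 in R 4.3.3: its default expression filter (14398 kept of 24945 genes with a count), TMM scaling, quasi-likelihood test without covariates and Benjamini-Hochberg adjustment over all genes tested, at 0.05. The lowest chi-square per gene between libraries was 2.21, so none was a copy. Ratios had 0.5 added to both counts. Names, positions and sequences came from GENCODE 44 on GRCh37 (55538 identifiers matched), with Ensembl canonical transcripts, and windows were folded with ViennaRNA 2.7.2. The alternatives were DESeq2 1.42.0, scaling by library size alone or by the upper quartile, no filter, at least 10 counts in every library, limma 3.58.1 on log2(CPM + 1), a replicate block, removal of loess trends (span 0.5) with length and GC content, the last pair together, and each library left out. The text names the 10 genes, MTOR, overlap partners, the 5 profiles nearest to RICTOR and, per pathway list, the 2 lowest and 2 highest called genes; a few results under this rule are not reported here. Members, lists and rules were chosen with earlier results of these data known.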

Additional observations from a re-analysis of the deposited data

How the results depend on the processing

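With 3 libraries a group, differences as small as those of most of these genes are at the limit of what the test separates, and gene counts do not place a loss along an mRNA. RICTOR was lower and past the threshold in every alternative run (15 of 15, adjusted p from 1.27e-16 to 0.00615). Scaled by library size only, 2 of the 10 genes were lower, 683 of all genes were higher, 21 pathway genes were lower and 5 higher, and PRR5 was at -0.03. With length and GC trends removed, 802 genes were lower, and PRR5 was at -0.03, TSC1 and TSC2 at 0.13. With these trends removed and the replicate block added, 678 genes, 6 pathway genes were lower and 4 pathway genes higher, and PRR5 stayed at -0.03, TSC1 and TSC2 at 0.13. With single libraries left out, lower genes were 972 to 2221 and higher genes 638 to 2091. In those fits 1 to 2 of the 10 genes were lower and 0 to 2 higher, pathway genes were 7 to 19 lower and 5 to 9 higher, and TSC1 against TSC2 ranged from -0.12 to 0.05. PRR5 then fell to -0.05 without control 1 and -0.01 without control 2 or IRE1 2, and was at 0.21 without control 3. The cause was not tested.

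No shared deviation was seen between libraries with the same replicate number: they correlated at -0.04, -0.01 and -0.11, and 0 of the 6 libraries correlated best with its own number. These values cannot tell whether control and IRE1 reactions of the same number were set up together. With the replicate block, 1496 genes were lower and 1117 higher, 1 of the 10 genes was lower and 0 were higher, and RICTOR was at -0.87. As 3 pairs, the RICTOR ratios gave an exact p of 0.25, the smallest possible.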
